A study of Mus musculus with 12 samples.

Results

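Chemokine receptors are the surface proteins with which blood cells read attractant proteins and find their way between marrow, blood, thymus and inflamed tissue. The 8 receptor genes described here are Cxcr4, Ccr9, Ccr7, Ccr2, Ccr1, Cxcr2, Cx3cr1 and Cxcr3. They were chosen by name and matched through their Ensembl gene IDs to 8 of the 38924 rows of a deposited expression table. They are also 8 of 25 genes of the chemokine receptor family that were looked up in it, decoy and related receptors included. Of the 8 genes, 6 reached a level of 1 TPM (transcripts scaled for length and to the same library total) in at least 4 libraries and entered the tests, and Ccr1 and Cxcr3 did not.

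Bulk RNA-seq was made from progenitors sorted from the marrow of female C57Bl/6J mice, wild type and with no treatment. There were 12 libraries, 4 for each of 3 cell types, and by their titles each type has 2 libraries in batch 1 and 2 in batch 2. Lymphoid-primed multipotent progenitors (LMPP), which still make lymphoid and myeloid cells, were gated as Lin- Sca1+ cKit+ CD150- CD34+ Flk2hi. Common lymphoid progenitors (CLP), which give rise mainly to lymphocytes, were gated as Lin- Sca1lo cKitlo IL7Ra+ Flk2+, and granulocyte-monocyte progenitors (GMP) as Lin- Sca1- cKit+ CD150- CD34+ FcgR+. Cells with mature lineage markers had been depleted from all 3 types. The sources used here do not give the age of the donors of these bulk libraries, or whether animals were pooled. The labels do not tie libraries to animals, so each p-value speaks only to the spread among these libraries, which could be technical.

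Chemokine receptors are G protein-coupled receptors that signal through inhibitory G proteins to Rac, Rap and integrins, and are then shut off by receptor kinases, arrestins and RGS proteins. CXCR4 binds CXCL12 of the marrow stroma and holds progenitors in the marrow. CCR9 and CCR7, the receptors for CCL25 and for CCL19 and CCL21, are known for guiding lymphoid progenitors to the thymus. CCR2 lets monocytes leave the marrow, CXCR2 draws neutrophils into blood, and CCR1 serves both kinds of cell. CX3CR1 is a fractalkine receptor of monocytes and CXCR3 a receptor of activated lymphocytes and plasmacytoid dendritic cells.

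Libraries did not match their gates equally well. The gate gene Flt3, which encodes Flk2, reached 138.28 and 146.13 TPM in the batch 1 libraries of CLP but only 8.91 and 16.98 TPM in those of batch 2, against 101.58 to 156.00 TPM in LMPP. Of the other CLP gate genes, Il7r was at 76.64 to 129.77 TPM in the 4 libraries, Kit at 15.26 and 20.91 TPM in batch 1 and 27.61 and 46.71 TPM in batch 2 (log2 difference 0.97, limma adjusted p = 0.0181), and Ly6a, for Sca1, at 37.58 and 29.89 TPM and then 27.32 and 2.24 TPM (-1.85, 0.0880). Fcgr3, of the GMP gate, was at 130.03 to 179.10 TPM in GMP. LMPP batch 2 replicate 1 and CLP batch 2 replicate 1, called the haemoglobin-rich pair below, held summed mature neutrophil markers (10 genes, led by S100a9) of 26182.49 and 12093.69 TPM, against 12.62 to 1982.77 TPM in the other 10 libraries. Summed erythroid markers in that pair came to 28470.33 and 13579.67 TPM. Read depth is unknown, because TPM keep none and every library has the same total.

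Cxcr4 was the most abundant of the 25 receptor transcripts in all 12 libraries. On the TPM scale, which is per transcript length, the summed family level ranged from 101.06 to 307.85 in LMPP, from 147.72 to 316.91 in CLP and from 127.32 to 275.42 in GMP, so the types overlapped. Cxcr4 made up 58.0 ± 9.32% of that sum in LMPP, 77.1 ± 6.62% in CLP and 67.7 ± 3.53% in GMP (SD, n = 4). What stood behind it varied with type and library. In all 4 GMP libraries the next receptor was Ccr2, and only 4 to 6 of the 25 genes reached 1 TPM. In LMPP 8 to 15 genes and in CLP 9 to 13 genes did so. The next receptor was Ccr9 in CLP batch 1 replicate 1, Ccr7 in CLP batch 1 replicate 2, and Cxcr2 in the haemoglobin-rich pair. Ccr2 was next, as in GMP, in the LMPP libraries outside that pair and in CLP batch 2 replicate 2. Together the 8 genes held 76.5% to 98.5% of the summed level of the family in a library. In bulk libraries a lower level can come from fewer cells that express a gene or from less RNA in each of them, and these cannot be told apart.

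**Figure D1:**
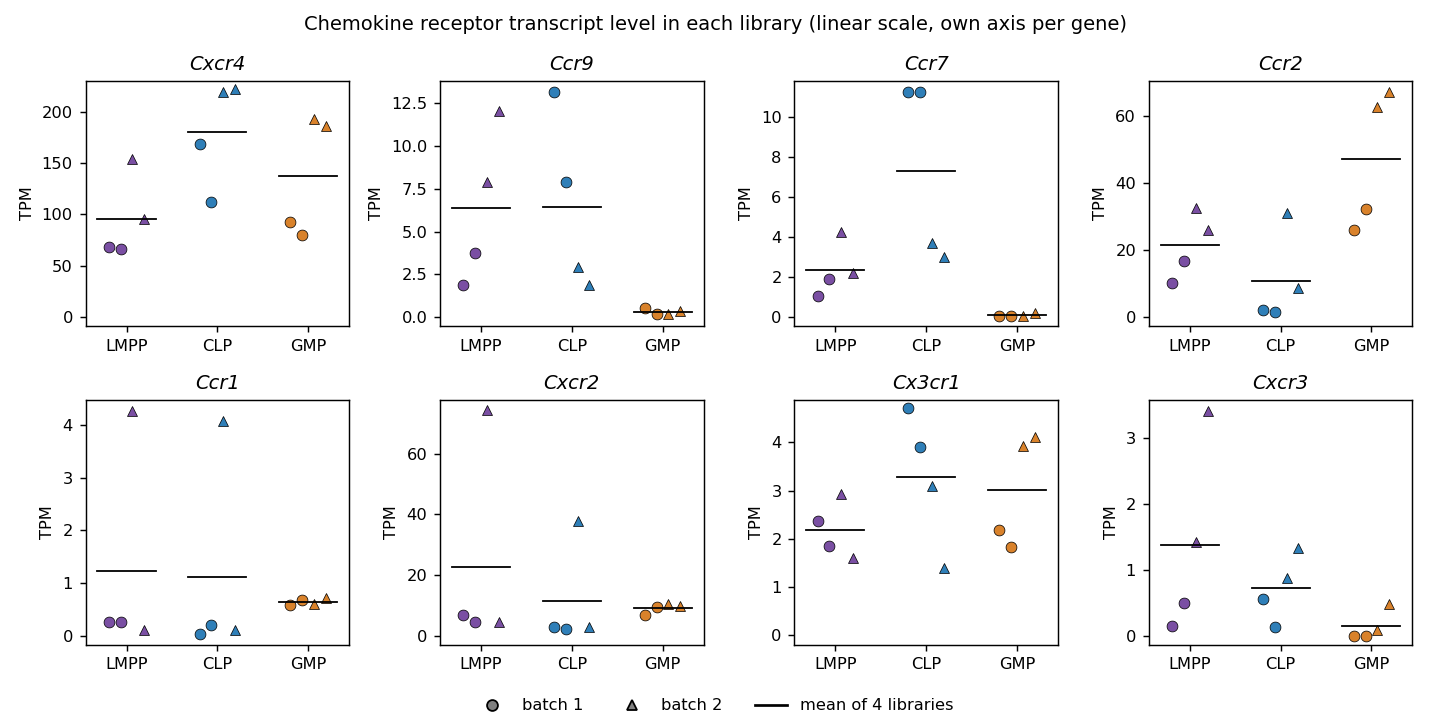
TPM of each receptor gene in every library, 1 panel per gene with its own linear axis; circles are batch 1, triangles batch 2, and lines the mean of 4 libraries. Ccr9 and Ccr7 lie near 0 in all 4 GMP libraries, GMP hold the highest Ccr2, and single LMPP and CLP libraries carry the Cxcr2 and Ccr1 means.

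The promoters of 3 receptors are shown because their genes follow 3 different patterns: Cxcr4 was high in every type, Ccr9 was near 0 in GMP, and Cxcr2 was high in single libraries. The sequences are from RefSeq on GRCm38.p6, where 7 of the 8 genes had an entry, and each is the part of the 250 bases before the annotated start that lies in no GENCODE exon, 5′ to 3′ on the strand of the gene. Capitals mark matches on either strand to CANNTG (an E-box), GAGGAA (a core bound by PU.1), TATAAA and TGCGCA (the core of the NRF1 motif), which were chosen with the expression values known.
Cxcr4, chr1:128592300-128592549, minus strand: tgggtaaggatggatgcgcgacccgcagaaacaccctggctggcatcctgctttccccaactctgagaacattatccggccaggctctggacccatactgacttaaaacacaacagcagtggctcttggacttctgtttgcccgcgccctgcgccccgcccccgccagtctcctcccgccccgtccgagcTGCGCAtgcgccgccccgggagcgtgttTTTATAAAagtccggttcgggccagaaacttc
Ccr9, chr9:123766961-123767168, plus strand: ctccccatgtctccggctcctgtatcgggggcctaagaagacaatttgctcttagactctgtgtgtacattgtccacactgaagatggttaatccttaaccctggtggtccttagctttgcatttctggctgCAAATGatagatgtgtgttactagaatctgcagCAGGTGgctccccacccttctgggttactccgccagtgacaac
Cxcr2, chr1:74153744-74153988, plus strand: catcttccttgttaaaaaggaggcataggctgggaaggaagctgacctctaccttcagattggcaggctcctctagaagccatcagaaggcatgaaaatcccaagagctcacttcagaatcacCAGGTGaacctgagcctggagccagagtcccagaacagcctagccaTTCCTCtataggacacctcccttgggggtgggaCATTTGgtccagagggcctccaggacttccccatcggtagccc
The Cxcr4 window has a G and C content of 61.2% and 19 CG dinucleotides, against a median of 52.4% and 6 over the 32851 promoters of the table. It holds TGCGCA, which 6.43% of those promoters do, and an AT-rich run that matches TATAAA on each strand, a motif that 12.37% of promoters hold on either strand. The window of Ccr9 has 3 CG dinucleotides and that of Cxcr2 has 1. Both hold 2 E-boxes, a motif present in 66.22% of promoters, and Cxcr2 also holds GAGGAA, present in 23.25%. A match is a string of letters and says nothing about binding.

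Across the 3 comparisons of cell types, Ccr9 and Ccr7 were higher in LMPP and in CLP than in GMP, Ccr2 was higher in GMP and in LMPP than in CLP, and Cxcr4 was lower in LMPP than in CLP or GMP. Genes were called at a limma adjusted p under 0.05 on log2(TPM + 1), with batch as a term. In LMPP against CLP, 2 of the 6 tested receptors were called, with Ccr2 higher and Cxcr4 lower in LMPP, where 10% of all tested genes were called (7.23% higher, 2.80% lower). In LMPP against GMP, 3 of 6 were called, with Ccr9 and Ccr7 higher and Cxcr4 lower in LMPP, where 28.9% of all tested genes were (21.3% higher, 7.62% lower). In CLP against GMP, 3 of 6 were called, with Ccr9 and Ccr7 higher and Ccr2 lower in CLP, beside 23.9% of all tested genes (13.9% higher, 9.96% lower). The median log2 difference of the 6 receptors was -0.17, -0.05 and 0.26 in these comparisons, and that of all tested genes 0.17, 0.24 and 0.09. The comparisons share libraries, so their calls are not independent.

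**Figure D2:**
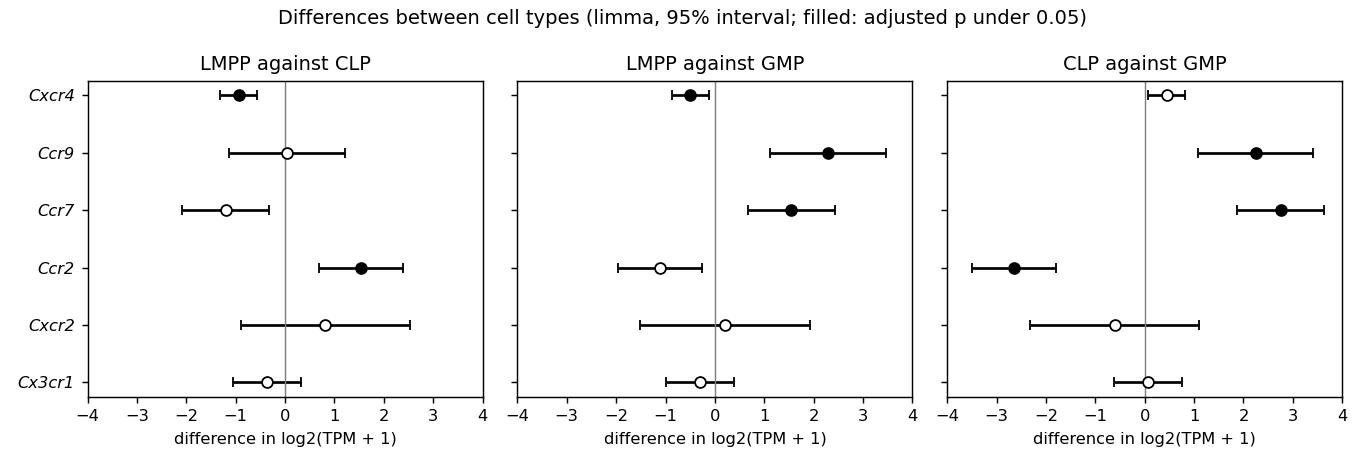
Log2 difference of the 6 tested receptors in each comparison of cell types, with its 95% interval from limma; filled points have an adjusted p under 0.05. Ccr9 and Ccr7 lie to the right of 0 in both comparisons with GMP, and the intervals of Cxcr2 are the widest.

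Cxcr4 (chromosome 1, 128588199 to 128592293 in mm10), the receptor of marrow retention, was highest in CLP and lowest in LMPP. The batch 1 libraries of LMPP held 68.48 and 65.65 TPM, and those of batch 2 held 153.45 and 95.27 TPM. CLP held 167.97 and 112.14 TPM in batch 1 and 218.62 and 221.92 TPM in batch 2. GMP held 92.39 and 80.04 TPM in batch 1 and 192.30 and 185.69 TPM in batch 2. The pooled ranges of the types overlapped, but inside each batch every LMPP library lay below every GMP library, and every GMP library below every CLP library. Batch 2 was above batch 1 in all 3 types without overlap. The difference between LMPP and CLP was -0.94 on the log2 scale (SE 0.173, limma adjusted p = 0.00693). It was -1.02 in batch 1 alone (0.0280) and -0.86 in batch 2 alone, where the call ended (0.0691).

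The Cxcr4 difference between LMPP and GMP was smaller, at -0.50 (SE 0.173, limma adjusted p = 0.0488), and that between CLP and GMP, at 0.44, was not called (0.0834). The call between LMPP and GMP was lost in 16 of 25 alternative settings, among them batch 1 alone (-0.35, 0.218), batch 2 alone (-0.64, 0.129) and quantile normalization (-0.43, 0.120). It was also lost when any of 8 single libraries was left out (0.0505 to 0.142), that is, any but LMPP batch 2 replicate 1, CLP batch 1 replicate 1, CLP batch 2 replicate 2 and GMP batch 1 replicate 2. It was kept without the haemoglobin-rich pair (-0.61, 0.0301). Between batches, Cxcr4 was called higher in batch 2 in GMP (1.13, SE 0.230, limma adjusted p = 0.0169) and in CLP (0.68, SE 0.230, 0.0462). In LMPP the batch difference of 0.84 was not called (0.0687).

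Ccr9 and Ccr7, the receptors known for thymus settling, were present in LMPP and CLP and near 0 in GMP. For Ccr9 (chromosome 9, 123678439 to 123784330), LMPP held 1.86 and 3.76 TPM in batch 1 and 7.90 and 12.08 TPM in batch 2. CLP held 13.16 and 7.88 TPM in batch 1 and 2.91 and 1.90 TPM in batch 2. GMP held 0.50, 0.16, 0.19 and 0.34 TPM. Every LMPP and every CLP library was therefore above every GMP library, while LMPP and CLP overlapped. The difference was 2.29 in LMPP against GMP (SE 0.536, limma adjusted p = 0.00786) and 2.25 in CLP against GMP (SE 0.536, 0.00950). In batch 2 alone the latter was 1.42 and not called (0.0581), and all 25 alternatives kept the direction.

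Ccr7 (chromosome 11, 99144196 to 99155077) reached 1.03 and 1.91 TPM in the LMPP of batch 1 and 4.26 and 2.2 TPM in those of batch 2. CLP held 11.23 and 11.22 TPM in batch 1 and 3.69 and 3.01 TPM in batch 2. GMP held 0.07, 0.03, 0.04 and 0.19 TPM, below every library of the other types. The difference was 1.55 in LMPP against GMP (SE 0.403, limma adjusted p = 0.0136) and 2.75 in CLP against GMP (SE 0.403, 0.000485). Under quantile normalization the former was 1.04 and not called (0.0812). Groups without overlap were seen for 2 of 6 receptors in LMPP against GMP and for 2 of 6 in CLP against GMP, Ccr9 and Ccr7 each time, beside 30.5% (22.7% higher, 7.76% lower) and 20.9% (11.8% higher, 9.12% lower) of all tested genes. LMPP and CLP libraries overlapped for all 6 receptors, and 11.1% of all tested genes had none (8.81% higher, 2.27% lower).

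Parts of the Ccr9 span overlap Lztfl1, Slc6a20a and other genes on the opposite strand, and the sources used here do not say whether counting used strand. Lztfl1 ran from 12.26 to 64.00 TPM, and Slc6a20a reached at most 1.83 TPM. Whether reads of these genes entered the Ccr9 level was not tested. Of the 10306 stretches of 50 bases in Ccr9 transcripts, 17.951% also occur on the opposite strand, in AC165425.1 or in an olfactory receptor gene, and 2.135% occur in Gm17200. AC165425.1 was listed at 0 in 11 libraries and at 0.26 TPM in CLP batch 1 replicate 1, and Gm17200 reached at most 0.13 TPM. No such stretch of Cxcr4, Ccr7, Ccr1 or Cxcr3 is shared with another gene.

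Between LMPP and CLP, the order of Ccr9 and Ccr7 depended on the batch. In batch 1 both Ccr9 values of CLP were above both of LMPP, and LMPP minus CLP was -1.60 on the log2 scale (SE 0.363, limma adjusted p = 0.0407). In batch 2 both were below, and it was 1.68 (SE 0.365, 0.0468). With the batches together the difference was 0.04 (95% interval -1.13 to 1.2, 0.975). The test of the difference between the batches gave 3.28 for Ccr9 (SE 0.537, limma adjusted p = 0.00912) and 2.25 for Ccr7 (SE 0.472, 0.0203), where 8.58% of all tested genes were called (2.68% higher, 5.90% lower). The same test called none of the 6 receptors in LMPP against GMP, where 0.0157% of all tested genes were called, all higher, or in CLP against GMP, where 5.48% were (3.02% higher, 2.46% lower). For Ccr7, CLP was above LMPP in batch 1 (-2.33, SE 0.275, 0.00737), and in batch 2 the types overlapped (-0.08, SE 0.369, 0.905). The pooled Ccr7 difference of -1.21 was not called (SE 0.403, 0.0782). It was called without LMPP batch 2 replicate 1 (-1.52, 0.0438) or CLP batch 2 replicate 2 (-1.49, 0.0456), without the haemoglobin-rich pair (-1.66, 0.0416) and without both CLP libraries of batch 2 (-2.16, 0.00465).

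Between the CLP batches 4 of the 6 tested receptors differed, beside 32% of all tested genes (21.3% higher and 10.7% lower in batch 2). Ccr9 was lower in batch 2 of CLP, at -1.74 on the log2 scale (SE 0.380, limma adjusted p = 0.00662), and Ccr7 by -1.50 (SE 0.334, 0.00731). Ccr2 was higher in batch 2 by 2.60 (SE 0.460, 0.00226), and Cxcr4 by 0.68 as given above. The call of Cxcr4 was lost in 13 of 20 alternatives, among them quantile normalization (0.19, 0.572) median-ratio scaling (0.48, 0.157) and leaving out CLP batch 1 replicate 2 (0.39, 0.308), and 9 of the 12 libraries ended it when left out. That of Ccr9 was lost without CLP batch 1 replicate 1 (0.0560), and that of Ccr7 on log2(TPM + 0.1) (0.0571). With only the 4 CLP libraries in the fit, Ccr7 alone was called (0.0492). In LMPP, Ccr9 was higher in batch 2 by 1.55 (SE 0.380, 0.0487), the only receptor called of 6, beside 4.61% of all tested genes (2.19% higher, 2.42% lower). In GMP, Cxcr4 was the only receptor called between batches, beside 8.22% of all tested genes (6.16% higher, 2.07% lower).

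Some other markers moved with the CLP batches. Siglech, a lectin of plasmacytoid dendritic cells, which also carry Ccr9, gave 70.18 and 26.51 TPM in the CLP of batch 1 against 5.49 and 1.02 TPM in those of batch 2. The summed level of the 9 dendritic markers was 694.13 and 220.35 TPM against 99.99 and 86.72 TPM, and none of the 9 was at 0 in all CLP libraries. Ly6d, which CLP turned towards the B lineage also express, led the sum, with 515.70 and 117.23 TPM in batch 1. Siglech (-3.61, limma adjusted p = 0.0113) and Bst2 (-1.43, 0.000578) were called lower in batch 2. Ly6d (-2.17, 0.0905), Itgax (-1.005, 0.0762), Clec9a (-0.30, 0.794) and Cd209a (0.40, 0.664) were not called, and the others did not pass the filter. Cd34, an LMPP and GMP gate gene, was at 111.33 and 163.76 TPM against 16.96 and 14.85 TPM. Summed B lineage markers (10 genes) came to 1652.11 and 651.81 TPM in batch 1, where Ighm was the most abundant, and to 5627.56 and 6979.6 TPM in batch 2, where Igll1, a part of the pre-B cell receptor, was (2222.34 and 2677.42 TPM). Summed T and NK markers (10 genes) gave 9.38 and 3.01 TPM in batch 1 against 12.81 and 32.44 TPM in batch 2. Among them Cd3e (2.17, limma adjusted p = 0.0181) and Trac (2.55, 0.0314) were called higher in batch 2. Cd4 (-0.54, 0.328) and Klrb1c (0.43, 0.503) were not called, and the others did not pass the filter. Cd3e and Trac were at 10.39 and 16.49 TPM in CLP batch 2 replicate 2, but at 1.39 and 3.48 TPM in replicate 1. The part of these cells in the Ccr9, Ccr7 and Ccr2 differences was not tested.

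**Figure D3:**
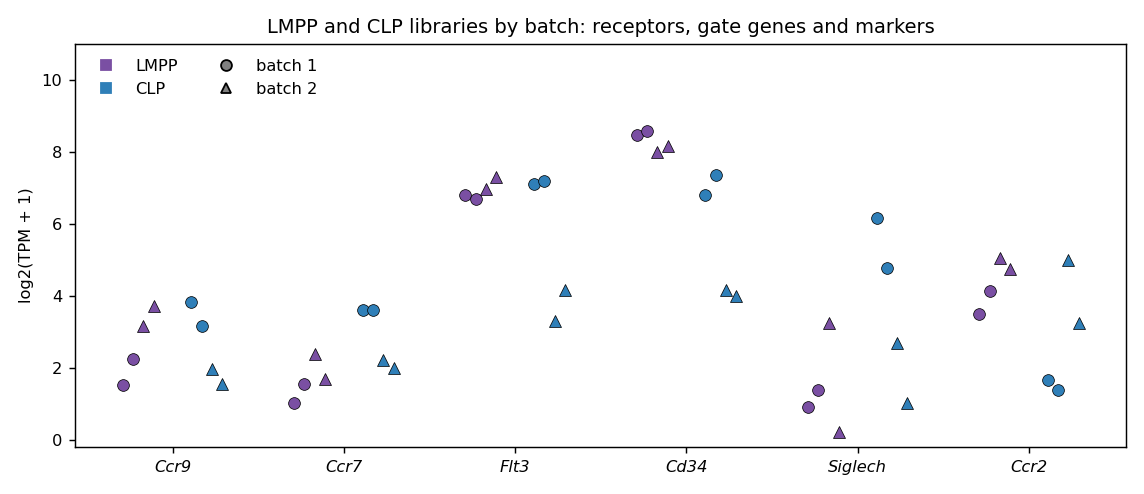
Log2(TPM + 1) of Ccr9, Ccr7, Ccr2, the gate genes Flt3 and Cd34 and the marker Siglech in the LMPP and CLP libraries; circles are batch 1 and triangles batch 2. In CLP the batch 2 points of Ccr9, Ccr7, Flt3, Cd34 and Siglech lie below those of batch 1, and those of Ccr2 above.

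Ccr2 (chromosome 9, 124101950 to 124113557), the receptor of monocyte exit, was highest in GMP. GMP held 26.00 and 32.20 TPM in batch 1 and 62.66 and 67.05 TPM in batch 2. LMPP held 10.27 and 16.71 TPM in batch 1 and 32.35 and 26.06 TPM in batch 2. CLP held 2.16 and 1.61 TPM in batch 1 and 31.07 and 8.50 TPM in batch 2. Within each batch the GMP libraries were above all others, while the pooled ranges overlapped. In batch 1 LMPP were above CLP, and in batch 2 a single CLP library, replicate 1, reached the LMPP range.

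In CLP against GMP the Ccr2 difference was -2.65 (SE 0.392, limma adjusted p = 0.000517). It was -3.38 in batch 1 alone (0.000305) and -1.92 in batch 2 alone, where the call ended (0.0735). LMPP exceeded CLP by 1.54 (SE 0.392, 0.0299). That call ended when any of 6 libraries was left out, the LMPP of batch 1, LMPP batch 2 replicate 1, the CLP of batch 1 or CLP batch 2 replicate 2 (0.0588 to 0.0756). It also ended in batch 2 alone (0.78, 0.380), without the batch term and with a replicate block. Fitting only the 2 types, or testing all genes above 0 TPM, ended it too, so it was lost in 11 of 25 alternatives. Without the haemoglobin-rich pair it held at 2.04 (0.00165). LMPP lay below GMP by -1.11, just outside the threshold (SE 0.392, 0.0516), and 11 of 25 alternatives placed it inside, such as batch 1 alone (-1.08, 0.0249) and leaving out the haemoglobin-rich pair (-1.13, 0.00554). Leaving out LMPP batch 1 replicate 2 (-1.33, 0.0367), or any CLP library but batch 1 replicate 1 (0.00212 to 0.0455), did so too.

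Markers of monocytes, like Ccr2, were highest in GMP. Their summed level over 10 genes, led by Ly6c2, ran from 1480.15 to 1873.38 TPM in GMP, while LMPP held 65.76 to 216.6 TPM and CLP 23.62 to 291.85 TPM. In LMPP and CLP the highest sums, 216.6 and 291.85 TPM, were those of the haemoglobin-rich pair, and none of the 10 markers was at 0 throughout a type. Within types the marker sum and Ccr2 did not always move together. In GMP the sum was 1873.38 and 1682.56 TPM in batch 1 and 1480.15 and 1678.89 TPM in batch 2. Ccr2 was higher in both libraries of batch 2. Most of that sum was Ly6c2, at 1738.89 and 1534.14 TPM and then 1170.95 and 1344.63 TPM. F13a1 (82.99 and 87.70, then 222.18 and 232.08 TPM), Csf1r, Ms4a6c and Adgre1 were, like Ccr2, higher in both libraries of batch 2. The other markers reached at most 1.84 TPM in GMP. LMPP batch 2 replicate 3 held a sum of 70.87 TPM with Ccr2 at 26.06 TPM, and LMPP batch 1 replicate 1 held 65.76 TPM with Ccr2 at 10.27 TPM. The part of such cells in the Ccr2 level was not tested. Of the stretches of 50 bases in Ccr2 transcripts, 1.909% occur in another gene on the same strand.

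Cxcr2 (chromosome 1, 74153989 to 74161246), the neutrophil receptor, was even in GMP and uneven in the other types. GMP held 6.75, 9.26, 10.33 and 9.61 TPM. LMPP held 6.82, 4.35 and 4.39 TPM in 3 libraries and 74.25 TPM in batch 2 replicate 1. CLP held 2.93, 2.16 and 2.68 TPM in 3 libraries and 37.91 TPM in batch 2 replicate 1. The high library of each type was that of the haemoglobin-rich pair. None of the 3 differences was called: LMPP against CLP 0.81 (SE 0.789, limma adjusted p = 0.539), LMPP against GMP 0.21 (0.865) and CLP against GMP -0.61 (0.618). Their 95% intervals were -0.90 to 2.53, -1.51 to 1.92 and -2.32 to 1.11. Without the haemoglobin-rich pair CLP lay below GMP by -1.46 (SE 0.234, 0.00178), and in batch 1 alone by -1.34 (0.0166). The difference between the CLP batches was 1.76 (0.275), 0.06 without that pair and 3.47 without CLP batch 2 replicate 2 (0.0465).

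Ccr1 (chromosome 9, 123962124 to 123968692), a receptor for CCL3 and CCL5, showed the same libraries at a lower level. It stood at 0.26, 0.26 and 0.11 TPM in 3 LMPP libraries and at 4.27 TPM in LMPP batch 2 replicate 1. In CLP it stood at 0.03, 0.20 and 0.11 TPM and at 4.08 TPM in batch 2 replicate 1. GMP held 0.58, 0.67, 0.59 and 0.72 TPM, above the other 6 LMPP and CLP libraries and below the high pair. Ccr1 did not pass the filter on low values. With all genes above 0 TPM tested, none of its differences between types was called (0.09 to 0.10 in size for the LMPP comparisons, -0.01 for CLP against GMP, limma adjusted p 0.952 to 1).

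Mature neutrophil markers were highest in the same pair of libraries as both genes. Their summed level ran from 30.3 to 26182.49 TPM in LMPP, while CLP held 12.62 to 12093.69 TPM and GMP 51.13 to 1457.73 TPM. S100a8 and S100a9, the most abundant of them, stood at 5610.88 and 11670.22 TPM in LMPP batch 2 replicate 1. Ly6g, the marker that defines neutrophils, was at 112.37 and 46.28 TPM in the haemoglobin-rich pair, at 1.58 and 11.08 TPM in the other batch 2 libraries of LMPP and CLP, and listed at 0 in their batch 1 libraries and in all GMP libraries. In GMP, Cxcr2 was between 6.75 and 10.33 TPM with Ly6g at 0, while the marker sum there varied from 51.13 to 1457.73 TPM. Outside the pair the sum and the receptors did not run together. CLP batch 2 replicate 2 held a sum of 1982.77 TPM with Cxcr2 at 2.68 and Ccr1 at 0.11 TPM, and CLP batch 1 replicate 2 held 12.62 TPM with Cxcr2 at 2.16 and Ccr1 at 0.20 TPM. LMPP batch 2 replicate 3 held 1803.51 TPM with Cxcr2 at 4.39 TPM, and LMPP batch 1 replicate 2 held 30.3 TPM with Cxcr2 at 4.35 TPM. The part of neutrophil RNA in the Cxcr2 and Ccr1 levels of the pair was not tested. In Cxcr2, 4.014% of stretches of 50 bases are shared with other genes on the same strand and 6.351% on the opposite strand.

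**Figure D4:**
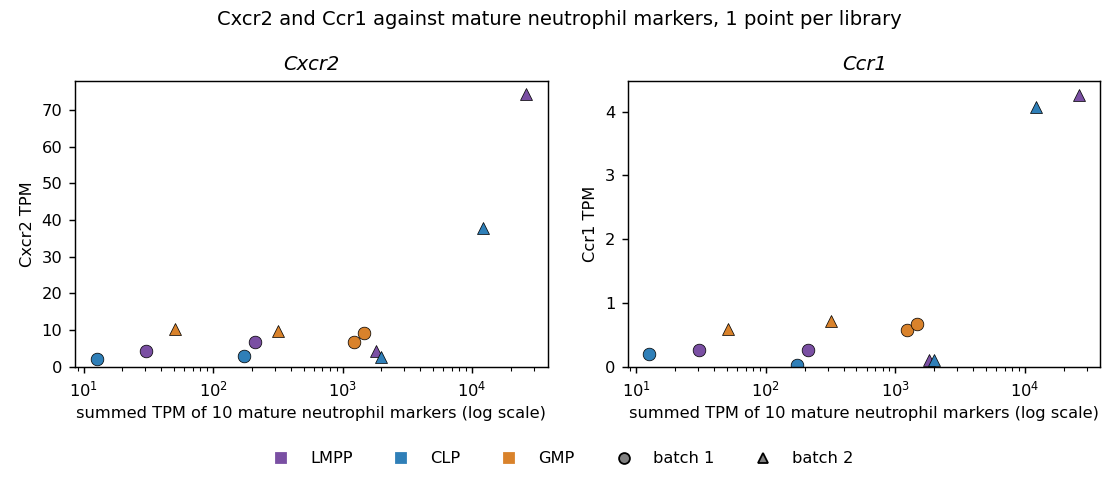
TPM of Cxcr2 and Ccr1 (linear axes) against the summed TPM of 10 mature neutrophil markers (log axis), 1 point per library. The points at 26182.49 and 12093.69 TPM of marker sum are the highest for both genes, and the other 10 libraries show no Cxcr2 above 10.33 TPM.

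Cx3cr1 (chromosome 9, 119901616 to 120069879), the fractalkine receptor, was low in every library. LMPP held 2.36, 1.85, 2.93 and 1.61 TPM, in the order batch 1 and then batch 2. CLP held 4.72 and 3.90 TPM in batch 1 and 3.09 and 1.39 TPM in batch 2, and GMP held 2.18 and 1.83 TPM in batch 1 and 3.92 and 4.11 TPM in batch 2. The types overlapped, and CLP was lower and GMP higher in batch 2. No comparison of types was called, with differences of -0.37 in LMPP against CLP (95% interval -1.06 to 0.32), -0.30 in LMPP against GMP (-0.99 to 0.39) and 0.07 in CLP against GMP (-0.62 to 0.76; limma adjusted p 0.481 to 0.897). Quantile normalization brought LMPP against GMP under the threshold (-0.83, 0.0381). The CLP batch difference of -0.76 (0.116) was called without the haemoglobin-rich pair (-1.15, 0.0123). The gene span overlaps Gorasp1, Csrnp1, Wdr48 and further genes.

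Cxcr3 (chromosome X, 101731535 to 101734269), a receptor for CXCL9 and CXCL10, was listed at 0 in both GMP libraries of batch 1 and at 0.09 and 0.48 TPM in those of batch 2. LMPP held 0.15 and 0.49 TPM in batch 1 and 1.42 and 3.41 TPM in batch 2, and CLP held 0.56 and 0.13 TPM in batch 1 and 0.87 and 1.33 TPM in batch 2. The 3 types overlapped, and batch 2 was above batch 1 in each. Cxcr3 did not pass the filter. With all genes above 0 TPM tested, LMPP exceeded GMP by 0.88 (SE 0.258, limma adjusted p = 0.0456), and the other comparisons of types were not called (0.213 and 0.525).

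Where neighbouring types differed, the order of the mean levels can be read from these values. For Cxcr4 the order was CLP (180 ± 51.6 TPM), GMP (138 ± 59.6) and LMPP (95.7 ± 40.7; SD, n = 4), with no call between CLP and GMP. For Ccr9 it was CLP (6.46 ± 5.17), LMPP (6.40 ± 4.55) and GMP (0.298 ± 0.156), with no call between the former types. For Ccr7 it was CLP (7.29 ± 4.56), LMPP (2.35 ± 1.37) and GMP (0.0825 ± 0.0737), and again only GMP was set apart. For Ccr2 it was GMP (47.0 ± 20.9), LMPP (21.3 ± 9.79) and CLP (10.8 ± 13.8), with no call between GMP and LMPP. The means of Cxcr2, 22.5 ± 34.6 TPM in LMPP, 11.4 ± 17.7 in CLP and 8.99 ± 1.56 in GMP, did not differ beyond their spread.

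On chromosome 9 several of these genes lie close together. Ccr9, Cxcr6, Xcr1, Ccr1, Ccr1l1, Ccr3 and Ccr2 lie in this order in mm10, with Ccr9 starting at 123678439 and Ccr2 ending at 124113557. They did not share a pattern: Ccr2 was highest in GMP, Ccr9 was near 0 there, and Ccr1 was high only in the haemoglobin-rich pair. Xcr1, a receptor of cross-presenting dendritic cells, was at 8.33 TPM in LMPP batch 2 replicate 3 and at no more than 1.60 TPM in the other libraries.

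The other 17 receptors of the family reached at most 15.64 TPM, in Ccrl2, and 5 of them were tested. Cxcr5, the receptor that guides lymphocytes to follicles, was lower in LMPP than in CLP (-1.39, SE 0.243, limma adjusted p = 0.00508), and no other was called. LMPP exceeded GMP in Ccrl2 (1.46, 0.0259), an atypical receptor, and in Cxcr6 (0.82, 0.0494), and none was lower. CLP exceeded GMP in Cxcr5 (1.59, 0.000632), and none was lower. The medians over the 5 genes were 0.23, 0.82 and 0.59. Cxcr5 was at 1.32 to 2.71 TPM in CLP and at no more than 0.31 TPM elsewhere.

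Of 33 chemokine genes, 10 were tested, and LMPP carried several inflammatory ligands. In LMPP against CLP 4 were higher and 1 lower (median 0.69), with Ccl9 (3.15), Ccl3 (2.87), Ccl4 (2.64) and Cxcl10 (1.80) higher and Mif (-0.50) lower, as log2 differences (limma adjusted p 0.00189 to 0.0355). Ccl3, whose product binds CCR1, stood at 75.08, 32.91, 79.67 and 108.03 TPM in LMPP, while CLP held 3.72 to 15.98 TPM and GMP 2.97 to 5.43 TPM, without overlap of LMPP with either. In LMPP against GMP 3 were higher and 1 lower (median 0.82), with Ccl3 (3.65), Ccl4 (3.23) and Ccl5 (2.32) higher and Mif (-0.62) lower (0.000109 to 0.00466). In CLP against GMP 1 was higher and 3 lower (median -0.03), with Ccl5 (1.89) higher and Ccl9 (-3.92), Pf4 (-2.59) and Cxcl10 (-0.97) lower (0.000437 to 0.0428).

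The cognate ligands of the guiding receptors were low. Cxcl12, the ligand of CXCR4, ran from 0.06 to 8.89 TPM in LMPP, while CLP held 0.07 to 3.96 TPM and GMP up to 0.15 TPM. The highest values of LMPP and CLP were those of the haemoglobin-rich pair, and the other libraries reached at most 1.08 TPM. Cxcl12 did not pass the filter. Ccl25, the ligand of CCR9, held 2.25 to 5.42 TPM in LMPP, while CLP had 0.64 to 7.08 TPM and GMP 3.55 to 6.22 TPM, and it was not called. Ccl19, a ligand of CCR7, reached at most 1.34 TPM, and Ccl21a was listed at 0 in all 12 libraries. Ccl2, the ligand of CCR2, reached at most 0.25 TPM. Mif, which can bind CXCR4 and CXCR2 and has Cd74 as its receptor, ran from 343.55 to 764.42 TPM in LMPP, while CLP held 454.26 to 1042.42 TPM and GMP 588.83 to 1241.45 TPM.

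Of 30 genes that carry the receptor signal, 29 were tested. LMPP differed from CLP in 4 of them: Plcb2 (1.09), a phospholipase, and Gng2 (1.08), a G protein subunit, were higher, and Rasgrp2 (-0.84), an activator of Rap, and Rac2 (-0.62), a GTPase of blood cell migration, were lower (limma adjusted p 0.00608 to 0.0306). In LMPP against GMP 6 were higher and 6 lower. The larger ones were Ptk2b (1.34), a kinase downstream of integrins, Gng2 (0.85), Prex1 (0.78), an activator of Rac, and Elmo1 (0.71), a partner of DOCK2 (0.00214 to 0.0272). Between CLP and GMP, Prex1 (0.74), Elmo1 (0.45) and Dock2 (0.40) were higher in CLP and Plcb2 (-1.08), Fermt3 (-0.79), which activates integrins, Arhgdib (-0.52) and Gng10 (-0.49) lower in CLP (0.00192 to 0.0387). The medians were 0.12, -0.03 and -0.06. Those of all tested genes, and the shares of all tested genes called in each comparison, are given above with the receptors. Whether more genes were called here than those shares would give was not tested. The same holds for the lists of other receptors, ligands, desensitisation and homing genes.

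A list of 19 genes was made, most of which end the signal or remove the receptor. It also takes in Cd74, named above as the receptor of Mif, and Dpp4. Of the 19 genes 18 were tested, and more were higher than lower in LMPP, as over all genes. In LMPP against CLP 5 were higher and 1 lower (median 0.21), with Rgs1 (2.96), Rgs18 (1.66) and Rgs2 (1.52), which quench G proteins, Grk3 (1.29), a receptor kinase, and Arrb1 (1.09), an arrestin, higher, and the receptor kinase Grk2 (-1.09) lower (limma adjusted p 0.000486 to 0.00718). Rgs1 stood at 58.91, 31.38, 41.12 and 60.91 TPM in LMPP and at 2.32 to 9.48 TPM in the other 8 libraries. Grk2 was at 45.90 to 72.02 TPM in CLP and at 26.44 to 34.44 TPM in the other 8 libraries. In LMPP against GMP 8 were higher and 1 lower (median 0.51), with Cd74 (3.56), Rgs1 (3.28), Dpp4 (1.65), a protease that cuts CXCL12, and Rgs2 (1.53) the largest (5.74e-05 to 0.00119). In CLP against GMP 4 were higher and 4 lower (median 0.31), with Cd74 (2.46), Dpp4 (2.41), Rgs10 (-1.45) and Grk3 (-1.17) the largest (3.04e-05 to 0.0203).

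Of 25 other homing genes, 22 were tested. In LMPP against CLP 4 were higher and 1 lower (median 0.18), with Robo4 (1.66), Ptafr (1.50), Plxnc1 (1.30) and Itgb1 (0.55) higher and Itga4 (-0.64) lower (limma adjusted p 0.00309 to 0.0338). ROBO4 is a guidance receptor of stem cells in marrow, and ITGA4 and ITGB1 form the integrin that holds progenitors to VCAM1. In LMPP against GMP 9 were higher and 1 lower (median 0.41), with P2ry14 (2.83), Robo4 (2.09), Ptafr (1.62) and, lower, the leukotriene receptor Ltb4r1 (-1.70) the largest (0.000183 to 0.00945). In CLP against GMP 4 were higher and 3 lower (median 0.12), with Ptger4 (1.39), S1pr4 (1.19), Itga4 (1.15), Hrh2 (0.73), Ltb4r1 (-1.57), S1pr2 (-1.26) and Itgb1 (-0.53) called (5.81e-05 to 0.0195).

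**Figure D5:**
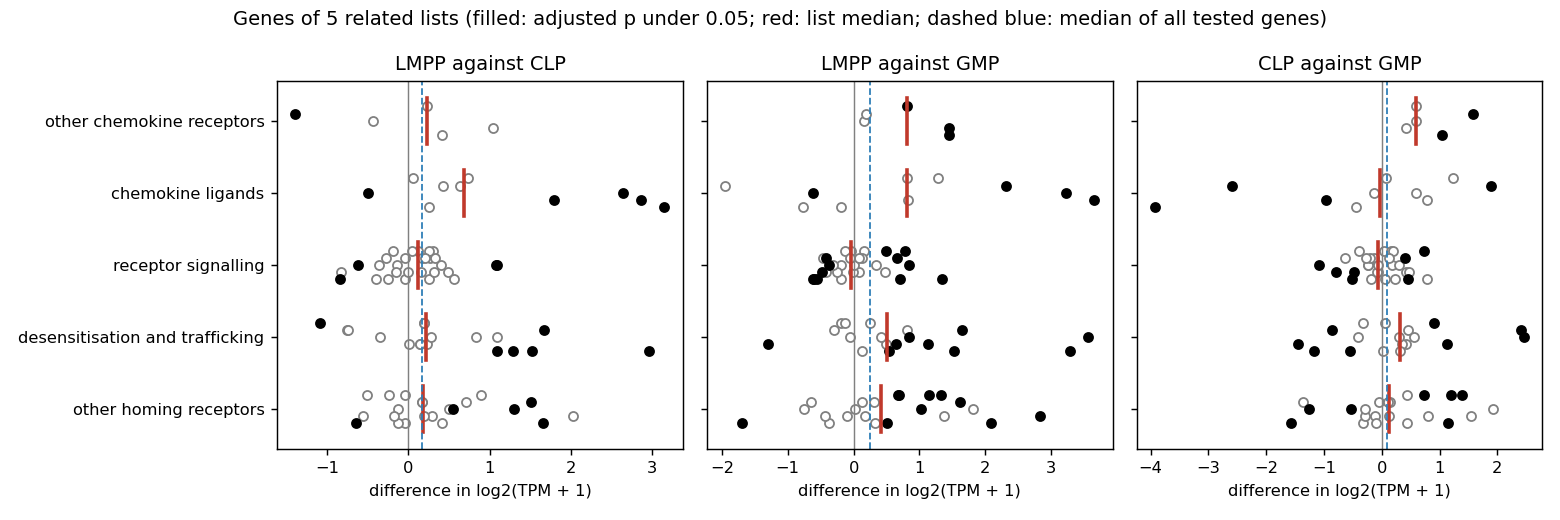
Log2 difference of each tested gene of the 5 related lists in the 3 comparisons of cell types; filled points have a limma adjusted p under 0.05, red bars are list medians and the dashed line the median of all tested genes. The ligand and desensitisation lists have the widest spread, and the signalling list lies within -1.08 to 1.34.

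By a fixed rule, the 3 genes most like each receptor over the 12 libraries were taken from 7613 tested genes whose mean reached 10 TPM in a type. The measure was Pearson r of log2(TPM + 1), and the libraries share their types and batches, so r describes the pattern only. Cxcr4 was most like Tpt1-ps3 (0.95), Ccne2 (0.93) and Mthfd2 (0.93), and Ccr9 most like Lax1 (0.96), Ighv6-3 (0.95) and Tlr7 (0.94). Ccr7 was most like Chst15 (0.96), Lck (0.95) and Sdc1 (0.95), and Ccr2 most like Dhrs7 (0.96), Anxa5 (0.96) and Ugdh (0.95). Fech (0.95) and Itgam (0.94) were among the genes most like Cxcr2, and Fech (0.94) and Itgam (0.90) among those most like Ccr1. Fech encodes an enzyme of haem synthesis and Itgam the CD11b integrin of myeloid cells. Cx3cr1 was most like Tubgcp2 (0.90), Acly (0.85) and Selplg (0.84), and Cxcr3 most like Lrch3 (0.94), Kctd18 (0.93) and Fam177a (0.93).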

How the data were processed

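Bulk RNA-seq of 12 libraries was read from a table in which the authors deposited TPM (a transcript's share of its library, corrected for length) for 38924 Ensembl gene IDs. Per the submitters' processing notes, Bowtie2 2.2.0, RSEM 1.2.12, edgeR 3.10.0 and the mm10 build were used, with order, settings, annotation and strand use not given in the sources used here. TPM are relative to each library's total and keep no depth, so no counting interval can be given and a 0 is only a value listed at 0. Another 17 columns match no sample by name and were not used. RSEM splits reads between near copies by estimate. Symbols and coordinates are from GENCODE for mm10.

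The 12718 genes that reached 1 TPM in 4 or more libraries were fitted as log2(TPM + 1) with limma 3.58.1 in R 4.3.3, with cell type and an additive batch term, a variance trend and 8 residual degrees of freedom. Differences are on that scale and understate changes of low genes. P-values are two-sided and adjusted by Benjamini-Hochberg over all tested genes, and calls are at an adjusted p under 0.05. Batch differences within a type, and between types, came from a fit of the 6 groups of type and batch (6 residual degrees of freedom). The fit was tested on simulated data. The genes, lists and tests were chosen with earlier results of these data known. All 8 receptors are named, with the 3 genes most like each and up to 4 called genes of each list with the largest differences, plus those behind counts of 5 or fewer. Genes named for other reasons (gate genes, markers, neighbours, cognate ligands and overlapping genes) were chosen with their values seen. Some genes of these lists are not reported here. Alternatives were another pseudocount, 2 filters, 3 scalings, single libraries left out, the haemoglobin-rich pair left out, batches alone, no batch term, a replicate block and fewer types.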

Additional observations from a re-analysis of the deposited data

Results flagged for a closer look

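Single libraries stood far from the other 3 of their type for 2 receptors. Cxcr2 was at 74.25 TPM in LMPP batch 2 replicate 1 and at 37.91 TPM in CLP batch 2 replicate 1, and Ccr1 was at 4.27 and 4.08 TPM in the same libraries. In each case the gap to the nearest library, as a share of the range of the 4, passed Dixon's 95% limit for 4 values. Of the 24 groups of a receptor and a type that were checked, 4 passed. Chance alone flags about 1 group in 20 if groups are independent and the 4 values come from 1 normal distribution. Here all 4 flags came from the same pair of libraries and each type spans 2 batches, so that rate is only a rough guide.

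The difference between LMPP and CLP itself differed between the batches for 2 receptors, by 3.28 on the log2 scale for Ccr9 and by 2.25 for Ccr7, LMPP minus CLP being higher in batch 2 (interaction terms, limma adjusted p = 0.00912 and 0.0203). Of 18 such tests on the 6 receptors, these 2 were called.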

How the results depend on the processing

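The tests are limited by 4 libraries per type, by batches that differ in CLP, and by TPM that keep no depth. Of the 6 tested receptors, 2 were called in LMPP against CLP. That count became 1 with all genes above 0 TPM tested (984 of 21797 genes called), 0 without the batch term, 4 in batch 1 alone, 1 in batch 2 alone and 1 with only the 2 types in the fit, and leaving out a library gave 1 to 2. The 3 calls in LMPP against GMP became 2 to 4 with a library left out. The 3 calls in CLP against GMP became 1 in batch 2 alone and stayed at 3 to 3 with a library left out. The 4 calls between CLP batches became 1 with only the CLP libraries and 3 to 4 with a library left out. Ccr9 in LMPP against CLP, 0.04 and not called, turned to -1.60 and was called in batch 1 alone, and ranged from -0.37 to 0.48, not called, with a library left out. Differences of receptors called between types or CLP batches kept their direction in all settings tried. Deviations of samples with the same number correlated weakly (10 pairs, r from -0.11 to 0.17, over 0.1 in 1). The highest r was that of the haemoglobin-rich pair. With 2 libraries per type and batch the 2 deviations mirror each other, so these r cannot show whether libraries with the same number are paired. With a replicate block 0 receptors were called in LMPP against CLP, 0 in LMPP against GMP and 3 in CLP against GMP. Scaling moved the median of all genes by -0.17, -0.28 and -0.10 (quantile) and by -0.15, -0.23 and -0.08 (median-ratio) in the 3 comparisons. Higher and lower calls over all genes, 920 and 356, 2707 and 969, and 1773 and 1267, became 635 and 595, 1552 and 1659, and 1426 and 1588 (quantile) and 560 and 602, 1717 and 1869, and 1523 and 1699 (median-ratio). Over all settings the calls in LMPP against CLP, LMPP against GMP and CLP against GMP ranged from 0 to 1, 0 to 3 and 0 to 2 for other receptors, from 2 to 5, 3 to 8 and 1 to 5 for ligands, from 0 to 6, 0 to 15 and 2 to 12 for signalling, from 4 to 8, 4 to 11 and 5 to 8 for desensitisation, and from 0 to 6, 3 to 15 and 5 to 11 for homing genes. The causes were not tested.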
